A study of Mus musculus with 4 samples.

Results

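The cells described here are early B cells found inside a stem and progenitor gate of mouse bone marrow, recognised by transcripts of Cd79a, the signalling chain shared by the pre-B and B cell receptors, and of Ebf1, a transcription factor that commits lymphoid progenitors to the B lineage. A barcode was counted as an early B cell when it held 500 to 7500 genes, under 10% mitochondrial UMIs, at least 2 Cd79a and 1 Ebf1 UMIs (unique molecular identifiers, the counted transcript copies), and under 50 UMIs of Jchain, a plasma cell transcript. The rule found 1912 such cells among 37344 kept barcodes, which is 5.12% of them. The measurements were droplet single-cell RNA counts, with 1 library for each of 4 genotypes. The control library was Vav1-iCre/+; the Ikk2CA library was Vav1-iCre/+ with Ikk2-CA flox/+, a constitutively active Ikk2 carrying S177E and S181E that drives NF-kB signalling; the Jak2V617F library was Vav1-iCre/+ with Jak2 V617F flox/+, an activated cytokine receptor kinase found in myeloproliferative disease; and the double library carried all 3 alleles. Every group therefore carried the recombinase, which acts throughout the blood-forming lineages, so recombination was not limited to B lineage cells. Each library pooled marrow of 5 mice aged 8 to 12 weeks, enriched for Cd117 with beads and sorted as LSK (Lin-Sca-1+Kit+), and the design text also names an NF-kB reporter of green fluorescence in the crosses. With pooled animals and 1 library a genotype, no spread between mice could be measured, so no test was made and no p-value is given. All intervals are 95% intervals of counting error only.

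B cell development starts from lymphoid-primed progenitors that express Flt3, Il7r and Dntt. Ebf1 and Pax5 then switch on the genes of the pre-B cell receptor, among them Igll1 and Vpreb1, whose products form the surrogate light chain (SLC), while Rag1 and Rag2 cut the heavy chain locus and Dntt adds bases to the joints. Pro-B cells hold surrogate light chain and Dntt together, large pre-B cells divide rapidly, and small pre-B cells stop dividing, regain Rag1 and Rag2 and then rearrange the kappa light chain. Sca-1, encoded by Ly6a, and Kit are the antigens of the sort, and Kit is lost as pro-B cells mature.

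The early B cells were sequenced to a median of 11202, 14388, 10052 and 25991 UMIs per cell in the control, Ikk2CA, Jak2V617F and double libraries, against 10598, 18340.5, 11109 and 24915 for the other kept cells. Values set as 4 numbers below follow that order of libraries. Because depth differed, shares of cells with a transcript are given as deposited and after thinning each cell to 5000 UMIs, which left out 33, 195, 35 and 2 early B cells. Levels are in CPM, the summed UMIs of the early B cells of a library scaled to the same total in each. No early B cell shared its barcode with one in another library. Scrublet, a doublet caller, called 0, 242, 0 and 1 deposited barcodes, so it did not work in 3 libraries, and all cells were kept. In Ikk2CA it called 2.34% of deposited barcodes, and 130 of these 242 calls were among the 1577 early B cells. Cells with the highest doublet scores, taken at 0.8% per 1000 barcodes, made up 12.6%, 11.5%, 20% and 12.5% of early B cells. Among all kept cells they made up less in each library, at 8.80%, 8.33%, 13.4% and 4.69%. Xist was detected in 52.5%, 30.0%, 0% and 18.5% of early B cells with at least 5000 UMIs (0 of 70 in Jak2V617F), so genotype and the sex makeup of the pools cannot be told apart.

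Early B cells were most frequent in the Ikk2CA library. They made up 2.16% of kept cells in control (174 of 8055, 95% exact binomial interval 1.85% to 2.50%). In Ikk2CA the share was 16.0% (1577 of 9865, 15.3% to 16.7%), which is 7.40 times the control share. In Jak2V617F it was 0.742% (105 of 14156, 0.607% to 0.897%), and in the double library 1.06% (56 of 5268, 0.804% to 1.38%). The Ikk2CA library thus held 82.5% of all early B cells, its interval lay above the other 3, and the Jak2V617F and double intervals lay below that of control but overlapped each other. Shares are of sorted cells, so they do not give the number of such cells in the marrow, and what the sort let through in each library was not measured.

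**Figure D1:**
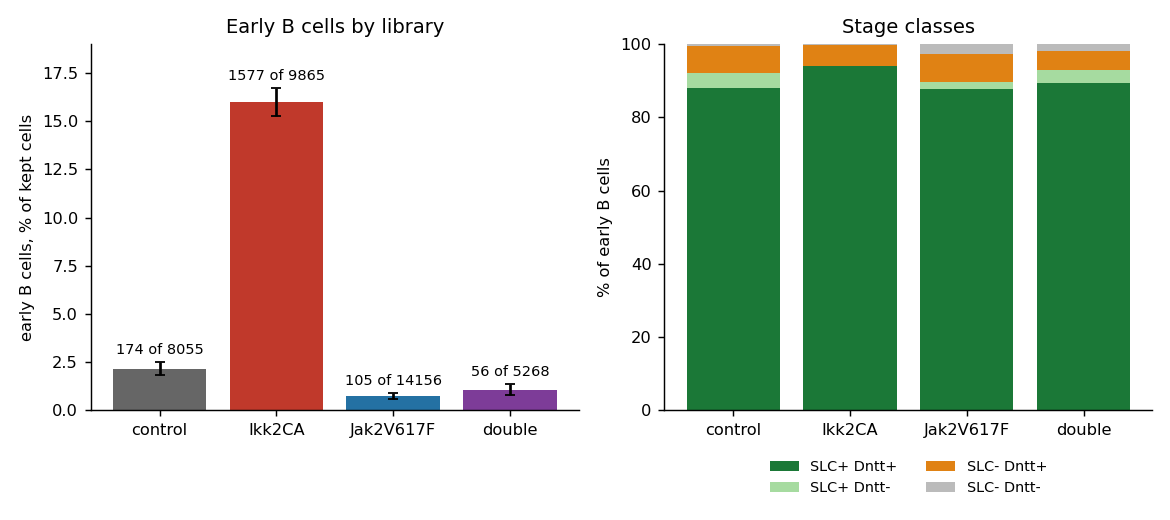
Left, early B cells as a percentage of kept cells in each library, with exact binomial 95% intervals and the counts above the bars; Ikk2CA stands at 16.0% and the other 3 between 0.742% and 2.16%. Right, early B cells split by surrogate light chain (SLC, Igll1 plus Vpreb1 at 2 or more UMIs) and Dntt (1 or more UMIs); cells with both make up 87.6% to 93.9%.

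The limits of the rule ran through few cells. A typical early B cell held far more than the minimum, with a median of 16.5, 20, 9 and 25 Cd79a UMIs and 29, 32, 20 and 43 Ebf1 UMIs in the 4 libraries. Exactly 2 Cd79a UMIs were held by 13, 25, 7 and 2 cells, of which 61.5%, 32%, 71.4% and 50% had surrogate light chain. Just outside, 17, 66, 11 and 3 kept cells held 1 Cd79a UMI with Ebf1, and 29.4%, 4.55%, 54.5% and 33.3% of them had surrogate light chain. The Jchain limit separated cleanly, since no early B cell held 10 to 49 Jchain UMIs. The cells with the markers and 50 or more Jchain UMIs numbered 4 in control and 36 in Ikk2CA.

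Genes that the rule did not name marked these cells as B lineage. Vpreb3, a gene of early B cells, was at 1862, 1942, 1201 and 1126 CPM in the early B cells and at 2.68, 5.45, 0.546 and 0.299 CPM in the other kept cells. Pax5, the factor that maintains B cell identity, was at 129.6 CPM in control, 135 in Ikk2CA, 119 in Jak2V617F and 86.7 in the double mutant. Its level in the other kept cells was under 1 CPM in all 4 libraries. Among the candidate genes for naming, the 12 with the highest ratio to the other cells in every library were Vpreb3, Lef1, Vpreb2, Vpreb1, Igll1, Akap12, Id3, Bfsp2, Cplx2, Blnk, Pde2a and Chchd10. Lef1, a Wnt pathway factor of pro-B cells, was at 193, 197, 192 and 138 CPM, and Blnk, the adaptor that couples the pre-B cell receptor to calcium signalling, at 398, 309.9, 281 and 211 CPM. The 12 lowest were Apoe, Prtn3, Mpo, Cd63, Ifitm1, Angpt1, Ctla2a, Adgrl4, Cd34, Lmo2, Dapp1 and Glipr1, which include granule proteins of the myeloid line (Prtn3, Mpo) and stem and progenitor genes (Cd34, Angpt1, Lmo2). Of the genes with at least 50 CPM in early B or other cells of every library, 121 were at least 2-fold higher in early B cells of all 4 libraries (4.57%) and 78 at least 2-fold lower (2.95%). The B identity list of 21 genes had 10 of 11 compared genes higher, and the pre-B cell receptor list of 10 genes 6 of 6. Genes such as Pax5 and Vpreb3 reached 50 CPM in the early B cells alone, so they could only come out higher. The list counts are therefore not read as support. These ratios follow from cells picked by their own transcripts and are a description.

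Most early B cells had the pro-B combination of surrogate light chain and Dntt. Cells with both made up 87.9%, 93.9%, 87.6% and 89.3% of early B cells as deposited, and 87.9%, 88.1%, 78.6% and 75.9% at 5000 UMIs. In the Ikk2CA library this was 1481 of 1577 cells. The ratios that follow rest on total UMIs and are not corrected for the median gene. Over control, that gene lay at a log2 ratio of -0.12 in Ikk2CA, -0.068 in Jak2V617F and -0.12 in the double library. The intervals do not cover this shift. Vpreb1 was at 1659.7 CPM in control, 1667 in Ikk2CA, 1368 in Jak2V617F and 1291 in the double mutant. Igll1 was at 924 CPM in control, 907 in Ikk2CA, 654 in Jak2V617F and 743 in the double mutant. Both were at the same level in control and Ikk2CA within counting error, at 1.00 times (95% interval 0.972 to 1.04) and 0.982 times control (95% interval 0.940 to 1.03), and lower in the libraries with Jak2 V617F, at 0.824 times (95% interval 0.779 to 0.871) and 0.708 times (95% interval 0.654 to 0.766) for Jak2V617F and 0.778 times (95% interval 0.736 to 0.821) and 0.804 times (95% interval 0.748 to 0.864) for the double library. Vpreb3 was also lower in both libraries with Jak2 V617F, and slightly above control in Ikk2CA. In the order Ikk2CA, Jak2V617F and double it stood at 1.04 times (95% interval 1.01 to 1.08), 0.645 times (95% interval 0.609 to 0.683) and 0.605 times control (95% interval 0.572 to 0.640). Cd79b, the partner of Cd79a, was at 521, 511, 394 and 389 CPM. Dntt was at 1239, 1168, 1016 and 945 CPM, or 0.943 times control (95% interval 0.908 to 0.980) in Ikk2CA, 0.820 times (95% interval 0.768 to 0.875) in Jak2V617F and 0.763 times (95% interval 0.716 to 0.812) in the double library.

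Igll1 lies on chromosome 16 at 16860671 to 16863985 on the minus strand (GRCm38), and the bases before its start are shown because its product with that of Vpreb1 defines the stage of these cells and because Ebf1, one of the genes of the rule, is known to act on the surrogate light chain genes in mice. The 250 bases of chr16:16863986-16864235 (RefSeq, GRCm38.p6, minus strand, 5′ to 3′) hold 1 match to CCCNNGGG, the core of the motif bound by EBF proteins, searched on both strands and set in capitals.
Igll1 promoter: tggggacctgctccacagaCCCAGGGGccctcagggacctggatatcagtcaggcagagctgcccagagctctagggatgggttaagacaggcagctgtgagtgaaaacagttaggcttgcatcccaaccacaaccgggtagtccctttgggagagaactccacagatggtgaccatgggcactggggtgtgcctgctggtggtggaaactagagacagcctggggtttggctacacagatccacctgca
The match lies 223 bases before the gene. The same core occurs in 11.8% of 32851 RefSeq windows of 250 bases before a gene start, and the windows of Vpreb1, Vpreb2 and Vpreb3 held no match. A match is a run of letters, not a measured site.

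The remaining stage classes were small. Cells with Dntt and without surrogate light chain numbered 13, 88, 8 and 3. In the Ikk2CA library, 86.4% of these 88 cells had Flt3, the cytokine receptor of lymphoid-primed progenitors, against 23.4% of the 1481 cells with both. Cd34 was found in 53.4% against 14.5% and Ly6a in 97.7% against 70.8%. Both classes had like depth, with medians of 13538 and 14540 UMIs. In control, Flt3 was found in 69.2% of the 13 cells of the class against 29.4%. Cells with surrogate light chain and no Dntt numbered 7, 3, 2 and 2.

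Recombination genes varied in part with genotype. Rag1, the cutting enzyme, was at 73.2 CPM in control, 67.5 in Ikk2CA, 128 in Jak2V617F and 60.0 in the double mutant. From summed UMIs the Jak2V617F library was higher, at 1.75 times control (95% interval 1.41 to 2.17). After thinning, which leaves out shallow cells, Rag1 was found in 30.5% of control early B cells (23.0% to 38.8%). In Jak2V617F the thinned share was 37.1% (25.9% to 49.5%). The intervals of these shares of Rag1 overlapped. Rag2, its partner, was at 70.7 CPM in control, 44.3 in Ikk2CA, 67.4 in Jak2V617F and 34.5 in the double mutant, and was lower in both libraries with Ikk2-CA, at 0.627 times (95% interval 0.533 to 0.741) and 0.489 times control (95% interval 0.352 to 0.669). Il7r, the receptor chain of the main growth factor of pro-B cells, was at 220.0, 195, 247 and 201 CPM and was detected in 77.0%, 84.7%, 81.0% and 89.3% of early B cells. Lists of later stages were not absent. The 12 pre-B resting genes summed to 394, 293, 410 and 261 CPM, against 148, 97.2, 134 and 94.7 CPM in the other kept cells. The 20 immature and mature B cell genes summed to 746, 1494, 770 and 1200 CPM, against 771, 1995, 773 and 1150 CPM. Among their single markers, Ms4a1 and Il2ra were low. Ms4a1, which encodes CD20 of mature B cells, was at 0, 0.342, 0 and 3.26 CPM, and Il2ra, a marker of pre-B cells, at 0.841, 0.418, 0 and 1.96 CPM. A count of 0 allows up to 1.26 CPM in control and 2.25 CPM in Jak2V617F (3 UMIs).

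Immunoglobulin transcripts have to be read against free RNA. Ighm, the constant region of the mu heavy chain, was at 860.3, 918, 731 and 731 CPM and was detected in 97.1%, 99.7%, 97.1% and 100% of early B cells. Igkc, the kappa light chain, was at 37.9, 677, 25.4 and 177 CPM in early B cells and at 1958, 14248, 246 and 332 CPM in the other kept cells, which include plasma cells. At 5000 UMIs, Igkc was found in 15.6%, 81.5%, 1.43% and 37.0% of early B cells. Cells with Gata1 and no Cd79a, an erythroid and megakaryocyte type that should lack it, showed Igkc in 11.4%, 59.0%, 2.95% and 2.50%. In control and Jak2V617F the early B cells did not stand above the reference beyond counting error. In Ikk2CA (95% interval 79.3% to 83.5%) and in the double library (24.3% to 51.3%) they did, although in Ikk2CA the reference itself was high and the other kept cells stood at 68.7%. As deposited, the Ikk2CA shares were 97.3% and 97.6%. Variable region genes with 2 or more UMIs were found in 9 of 1577 Ikk2CA early B cells for the heavy chain and in none for kappa, and in none of the other 3 libraries for either.

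**Figure D2:**
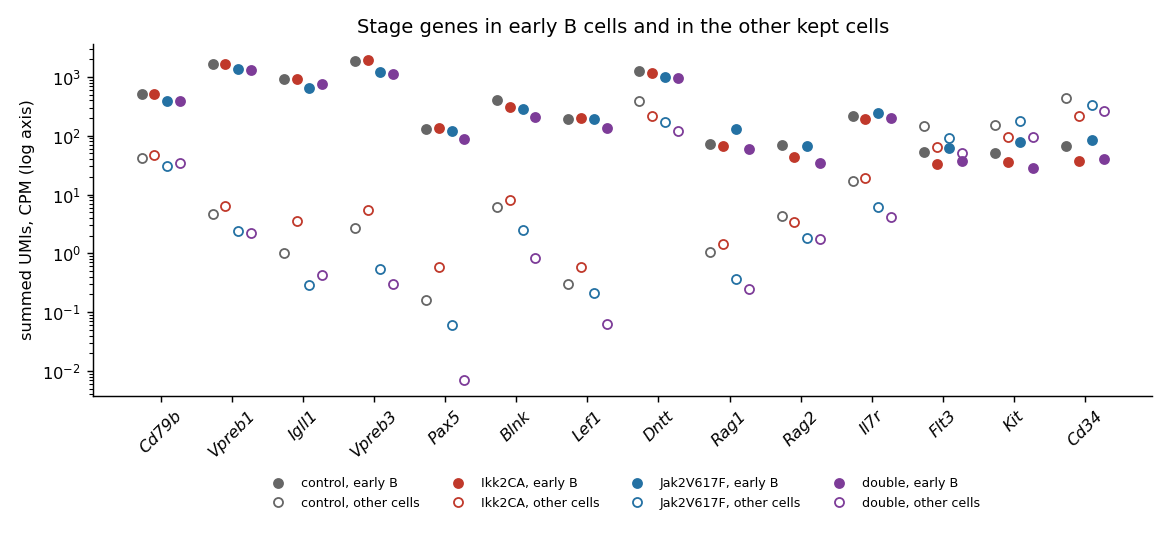
Summed level (CPM, log axis) of 14 stage genes in early B cells (filled) and in the other kept cells (open) of each library, with 1 point a library. Surrogate light chain, Pax5 and Lef1 stand far above the other cells in all 4 libraries, while Flt3, Kit and Cd34 stand below them.

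Most early B cells carried transcripts of dividing cells. Mki67 or Top2a, both transcribed in dividing cells, was found in 80.5% of control, 80.2% of Ikk2CA, 73.3% of Jak2V617F and 85.7% of double early B cells. At 5000 UMIs the shares were 87.2% (80.6% to 92.3%), 81.4% (79.3% to 83.4%), 85.7% (75.3% to 92.9%) and 81.5% (68.6% to 90.7%). The 4 intervals overlapped. Lymphoid-primed cells, chosen by Flt3 and Dntt without Cd79a, had shares of 47.2%, 53.9%, 61.9% and 55.0%, and the other kept cells as a whole 44.9%, 53.5%, 55.2% and 54.7%. Early B cells thus lay above both in every library, with intervals that did not overlap. The Gata1 reference stood at 78.7%, 76.0%, 80.1% and 73.9%, so the share alone does not set early B cells apart from it. The part of free RNA in these shares was not tested.

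Summed lists of phase genes separated them further. At 5000 UMIs per cell, 38 S phase genes took 56.4, 52.1, 51.4 and 48.6 of every 10000 UMIs in early B cells and 29.4, 30.9, 35.7 and 34.0 in lymphoid-primed cells, with 46.0, 36.2, 39.9 and 38.7 in the Gata1 reference. The 52 genes of the G2 and M phases took 149.8, 125, 122 and 113 against 47.3, 51.2, 55.3 and 49.4 and 87.0, 83.5, 87.8 and 74.0. Control early B cells were the highest in both lists. Mki67, a nuclear protein of dividing cells, was at 558, 388, 419.9 and 405 CPM, and Top2a, the topoisomerase that untangles sister chromatids, at 879.7, 670.0, 801 and 647 CPM, so each of the 3 mutant libraries lay below control for both. For Ikk2CA the ratios to control were 0.696 times (95% interval 0.657 to 0.738) and 0.762 times (95% interval 0.728 to 0.797). Ccnd3, the D-type cyclin that pre-B cells need to divide, was at 966, 673, 527 and 609 CPM, again highest in control, against 109, 119.8, 125 and 109.9 CPM in the other kept cells. Ccnd2, another D-type cyclin, was at 170.0, 126, 240.3 and 153 CPM and was not higher than in the other kept cells (238, 145, 243 and 160.3 CPM).

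**Figure D3:**
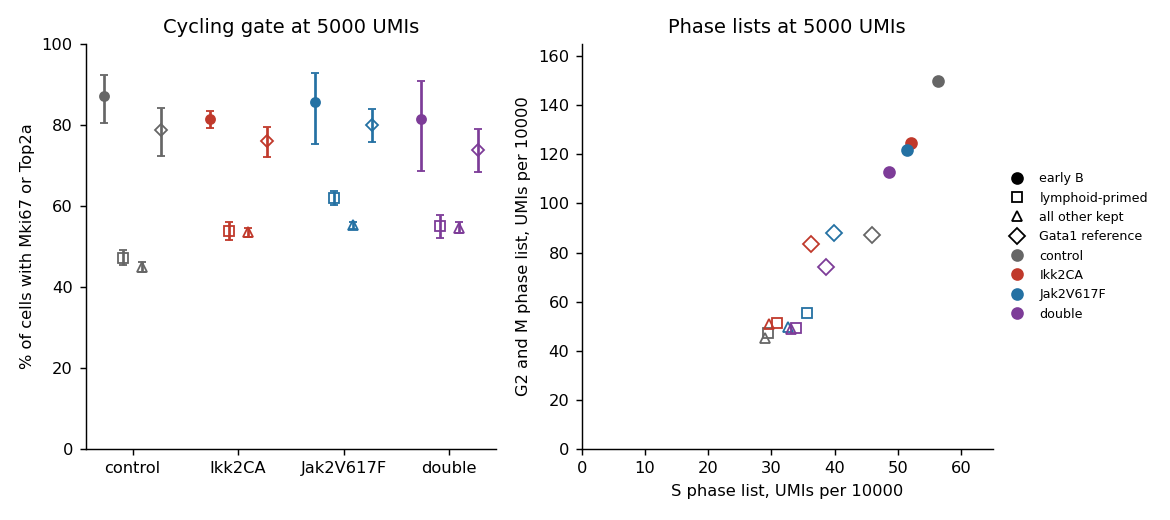
Left, share of cells with a Mki67 or Top2a UMI at 5000 UMIs per cell, with exact binomial 95% intervals, for early B cells (filled) and 3 sets of other cells (open); early B cells lie at 81.4% to 87.2%. Right, UMIs of the S phase and of the G2 and M phase lists per 10000 UMIs in the same sets, where early B cells are the upper right group.

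The minority of early B cells with neither Mki67 nor Top2a differed from the rest in stage genes. At 5000 UMIs these numbered 18 in control, 257 in Ikk2CA, 10 in Jak2V617F and 10 in the double library. In Ikk2CA their Dntt stood at 1639.9 CPM against 1075 CPM in cycling cells, Rag1 at 112 against 51.0 CPM and Ly6d, a marker of lymphoid progenitors turning to the B lineage, at 1341 against 629 CPM. In control Dntt stood at 2931 against 1092 CPM, Rag1 at 244 against 54.1 CPM and Ly6d at 1419 against 317 CPM. Vpreb1 stood at 1194 against 1553 CPM in control and 1848 against 1488 CPM in Ikk2CA, that is lower in the first and higher in the second. Surrogate light chain was held by 44.4% of the cells without a cycling transcript and 97.6% of cycling cells in control, and by 75.5% and 94.7% in Ikk2CA. These splits are within a library and have no replicate.

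Ly6a, which encodes Sca-1, lies on chromosome 15 at 74994877 to 74998031 (minus strand, GRCm38). It was higher in early B cells of the libraries with Ikk2-CA than in those of control. Its level was 69.0 CPM in control, 281 in Ikk2CA, 122 in Jak2V617F and 249 in the double mutant. That is 4.08 times control (95% interval 3.49 to 4.79) for Ikk2CA, 1.77 times (95% interval 1.41 to 2.21) for Jak2V617F and 3.61 times (95% interval 3.00 to 4.36) for the double library. Ly6a UMIs were present in 32.2%, 72.2%, 51.4% and 76.8% of early B cells. At 5000 UMIs the shares were 23.4% (16.7% to 31.3%), 53.8% (51.2% to 56.5%), 30.0% (19.6% to 42.1%) and 50% (36.1% to 63.9%). The Ikk2CA interval lay above those of control and Jak2V617F. The Jak2V617F interval overlapped that of control. With cells thinned first and the rule applied to the thinned counts, the log2 ratio of Jak2V617F to control was 0.23 in place of 0.82.

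The other kept cells moved in the same direction between libraries. Their Ly6a level was 107 CPM in control, 226 in Ikk2CA, 138 in Jak2V617F and 191 in the double mutant, and at 5000 UMIs 38.1%, 54.6%, 45.4% and 55.0% of them held a Ly6a UMI. In control and Jak2V617F the early B cells thus had a lower share than the other cells of their own library. In Ikk2CA the 2 shares were 53.8% and 54.6%. The log2 ratio of early B to other cells was -0.63 in control, 0.32 in Ikk2CA, -0.18 in Jak2V617F and 0.39 in the double library from summed UMIs. With cells thinned to 5000 UMIs and the rule reapplied, which also leaves out shallow cells, it was -0.89, -0.08, -0.92 and -0.18. With every cell given equal weight, it was -1.12, -0.024, -0.71 and 0.013. The sign thus turned in Ikk2CA under both and in the double library under thinning. The Gata1 reference, at 7.43%, 21.0%, 18.2% and 27.1%, lay below the early B cells in all 4 libraries, with overlapping intervals in Jak2V617F. Lymphoid-primed cells, at 39.5%, 66.8%, 45.9% and 58.2%, lay above the early B cells in all 4 libraries, with overlapping intervals in the double library. A high Ly6a share was thus not particular to early B cells.

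**Figure D4:**
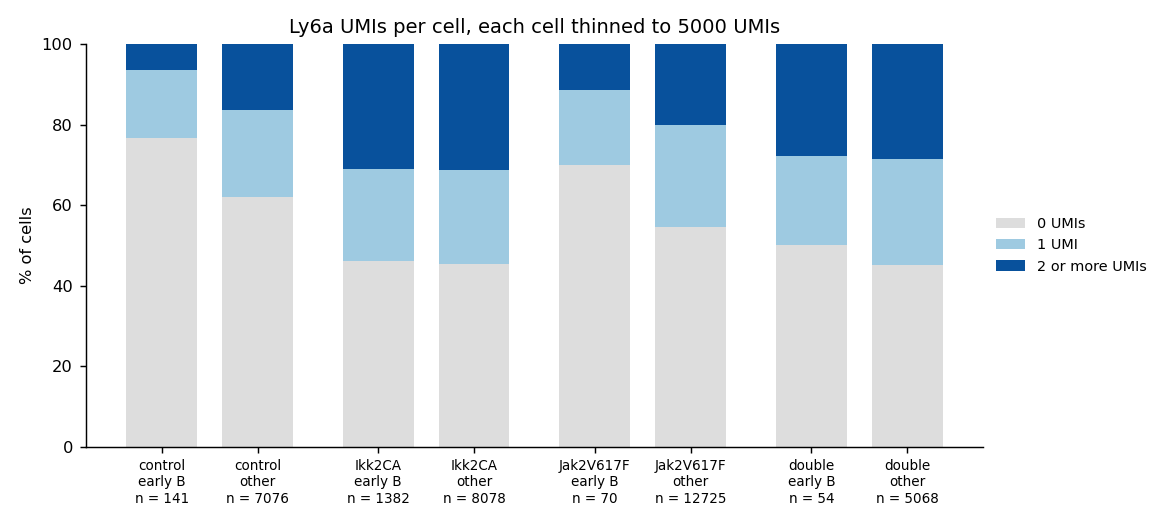
Percentage of cells with 0, 1 or at least 2 Ly6a UMIs after thinning each cell to 5000 UMIs, for early B cells and the other kept cells of each library, with the number of cells below each bar. At least 2 UMIs were held by 6.38% of early B cells in control and 31.1% in Ikk2CA.

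Within the Ikk2CA library, early B cells with Ly6a at 5000 UMIs (744 cells) differed from those without (638 cells) in other genes too. Cd74 stood at 372 against 154 CPM, H2-Aa at 136 against 71.1 CPM and Ly6d at 961 against 431 CPM. Mki67 stood at 354 against 449 CPM, and cycling transcripts were found in 78.0% against 85.4%. Control cells showed the same directions, with Cd74 at 79.1 against 25 CPM, Mki67 at 412 against 619 CPM, Ly6d at 672 against 302 CPM and cycling transcripts in 75.8% of 33 against 90.7% of 108 cells. In Jak2V617F, with 21 cells with Ly6a and 49 without, Cd74 was at 46.6 against 36.6 CPM and Mki67 at 289 against 505 CPM, in the same directions. Ly6d at 333 against 414 CPM and H2-Aa at 22.1 against 39.0 CPM went the other way there. In the double library, with 27 cells each, Cd74 was at 223 against 97.0 CPM and Ly6d at 678 against 219 CPM. Mki67 hardly differed there, at 405 against 410 CPM, and cycling transcripts were found in 81.5% of both. Igkc was lower in the cells with Ly6a in Ikk2CA, at 542 against 763 CPM, and in the double library, at 143 against 197 CPM. It was higher in them in control, at 29.9 against 23.9 CPM, and in Jak2V617F, at 7.36 against 3.66 CPM.

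Kit, the other antigen of the gate, was low in early B cells. Its level was 51.7 CPM in control, 35.5 in Ikk2CA, 78.6 in Jak2V617F and 28.0 in the double mutant, against 151 CPM in control, 95.5 in Ikk2CA, 175 in Jak2V617F and 94.2 in the double mutant in the other kept cells. At 5000 UMIs, 13.5%, 15.8%, 25.7% and 14.8% of early B cells and 53.1%, 38.9%, 57.1% and 38.6% of the others held a Kit UMI. Cd34, a progenitor surface protein, was lower too, at 66.9, 37.6, 83.8 and 39.8 against 437, 214, 333 and 267 CPM. Flt3 was at 53.8, 32.8, 60.6 and 37.8 CPM against 146, 63.4, 92.5 and 51.3 CPM. Against lymphoid-primed cells, which were chosen on Flt3, the levels of Kit there were 131, 71.6, 143 and 80.8 CPM and those of Cd34 544, 250.4, 411 and 321 CPM. Kit and Cd34 in early B cells lay below these in each library.

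Between genotypes, the Ikk2CA and control early B cells could be compared best, with 26307540 and 2376981 summed UMIs. Of 3017 genes with at least 50 CPM in either, 55 were at least 2-fold higher in Ikk2CA (1.82%) and 15 at least 2-fold lower (0.497%). The median gene lay at a log2 ratio of -0.12, and ratios below are not corrected for it. Ltb, the membrane-anchored lymphotoxin chain and an NF-kB target, was at 46.7 CPM in control, 306 in Ikk2CA, 53.9 in Jak2V617F and 255 in the double mutant. Its ratio to control was 6.55 times (95% interval 5.43 to 7.98) in Ikk2CA. Nfkbia, the inhibitor that NF-kB induces against itself, was at 65.6 CPM in control, 181 in Ikk2CA, 71.1 in Jak2V617F and 130.4 in the double mutant, or 2.76 times control (95% interval 2.35 to 3.25) in Ikk2CA. At 5000 UMIs Nfkbia was found in 54.4% of Ikk2CA early B cells, 79.3% of the Gata1 reference and 79.6% of the other kept cells. In control these sets stood at 25.5%, 13.9% and 28.6%, and how much of these shares was free RNA was not tested. In the list of 36 NF-kB targets, 6 genes were compared. Of these, 3 were at least 2-fold higher and none lower (Ltb, Nfkbia and Cd74), with a median log2 ratio of 1.03 against -0.12 over all genes. Ltb and Cd74 were under 50 CPM in control and were compared through their Ikk2CA level alone. This count and median are thus not read as a result. Nfkb1 and Sod2 of the same list were at 0.923 and 0.854 times control.

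The bases before Ltb are shown because it had the largest ratio to control of the NF-kB target list after Cd74 and because Ikk2 acts through NF-kB. Ltb lies on chromosome 17 at 35194439 to 35196320, plus strand (GRCm38). The 182 bases of chr17:35194257-35194438 (RefSeq, GRCm38.p6, plus strand, 5′ to 3′) hold 1 match to GGNNNTTCC, a core of the NF-kB motif searched on both strands, set in capitals.
Ltb promoter: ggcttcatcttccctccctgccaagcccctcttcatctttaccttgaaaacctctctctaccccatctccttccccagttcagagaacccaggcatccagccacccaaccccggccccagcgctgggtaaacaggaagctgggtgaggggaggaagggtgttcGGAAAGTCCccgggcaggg
The match ends 10 bases before the annotated gene. This core occurs in 15.7% of the 32851 RefSeq windows of 250 bases. Windows of other genes looked up held it too: Nfkbia and H2-Aa, but also Vpreb1 and Rag2, which were at 1.00 and 0.627 times control in Ikk2CA, Vpreb2, Cd79a and 1 of the Ebf1 windows. Binding was not measured.

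Several genes of the immature and mature B cell list had higher levels in Ikk2CA. Cd74, the invariant chain of class II molecules, was at 38.7 CPM in control, 270.5 in Ikk2CA, 53.1 in Jak2V617F and 188 in the double mutant, or 6.99 times control (95% interval 5.69 to 8.68) in Ikk2CA. H2-Aa, a class II alpha chain, was at 18.5 CPM in control, 105 in Ikk2CA, 39.7 in Jak2V617F and 78.9 in the double mutant, or 5.69 times (95% interval 4.23 to 7.86). H2-Eb1, a class II beta chain, was at 13.5 CPM in control, 82.6 in Ikk2CA, 24.0 in Jak2V617F and 60.0 in the double mutant, or 6.14 times (95% interval 4.34 to 9). H2-Ab1 differed less, at 1.51 times (95% interval 1.34 to 1.70). In the list of 20 immature and mature B cell genes, 7 were compared. Of these, 4 were at least 2-fold higher (Cd74, H2-Aa, H2-Eb1 and Ltb), against 1.82% of all compared genes, while Cd37 was at 1.03 times control. All 4 were under 50 CPM in control and were compared through their Ikk2CA level alone, so the count is not read as a result. Free RNA limits this reading. At 5000 UMIs, Cd74 was found in 37.2% of Ikk2CA early B cells and 35.4% of the Gata1 reference, and H2-Aa in 28.6% and 38.2%. As deposited, Cd74 was found in 50.3% and 62.2%. Neither share stands above the reference beyond counting error. The reference cells come from the same Ikk2CA library, and whether they express these genes themselves was not tested. For Ltb the shares were 64.3% and 50.4%, against 12.1% and 6.93% in control. The other kept cells of Ikk2CA were also higher than those of control, at 3.43 times for Ltb, 4.75 times for Cd74 and 2.11 times for Ly6a, and the part of this RNA in the early B cell values was not tested.

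Immediate early genes respond within minutes to stimulation or handling, and several had higher levels in Ikk2CA early B cells. Of 11 compared, 6 were at least 2-fold higher and none lower, against 1.82% and 0.497% of all compared genes, with a median log2 ratio of 1.01. Fos, an AP-1 subunit, was at 36.2 CPM in control, 142 in Ikk2CA, 61.4 in Jak2V617F and 35.9 in the double mutant, or 3.93 times control (95% interval 3.17 to 4.92). Junb, another subunit, was at 36.6 CPM in control, 103 in Ikk2CA, 62.9 in Jak2V617F and 54.1 in the double mutant, or 2.82 times (95% interval 2.28 to 3.53). Dusp1, Klf2, Zfp36 and Jund made up the rest, at 3.76, 3.28, 2.62 and 2.02 times control. Fos and Junb were under 50 CPM in control and were compared through their Ikk2CA level alone. The count of 6 and the list median are thus not read as a result. The double library showed none at least 2-fold higher of 7 compared. This is near the 0.994% of all genes compared there, so the count is not read as a result. Fos in the double library was at 0.991 times control (95% interval 0.693 to 1.41). In the other kept cells Fos was at 56.2, 452, 176 and 56.6 CPM, in the same order of libraries for the highest 2, Ikk2CA and Jak2V617F. At 5000 UMIs Fos was found in 35.8% of Ikk2CA early B cells and 55.4% of the Gata1 reference, against 15.6% and 14.4% in control. How much of this was free RNA was not tested.

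The remaining genes with the highest Ikk2CA ratios were globin and replication-dependent histone genes. Hbb-bs, a beta globin of red cells, was at 2.52 CPM in control, 207 in Ikk2CA, 1.5 in Jak2V617F and 6.52 in the double mutant, in 2.87%, 24.4%, 1.90% and 14.3% of early B cells, and at 12.6, 479.9, 70.4 and 57.5 CPM in the other kept cells. Its ratio to control was 81.9 times (95% interval 37.6 to 223) in early B cells and 38.0 times in the other kept cells. At 5000 UMIs it was found in 8.76% of Ikk2CA early B cells and 9.42% of the others. Hist1h2ap, an H2A histone, was at 158 CPM in control, 1230.4 in Ikk2CA, 484 in Jak2V617F and 249.7 in the double mutant and Hist1h4d, an H4 histone, at 76.6, 469.5, 155 and 465 CPM. In the other kept cells Hist1h2ap was at 68.3, 611, 263 and 156 CPM, the same order of libraries. Hist1h3e, Hist1h2ab, Hist2h2ac and Hist1h3c completed the 12 highest, with log2 ratios of 1.95, 1.88, 1.86 and 1.69. The S phase list had 0 of 31 compared genes past 2-fold in either direction. Over all compared genes 1.82% were higher and 0.497% lower, so a count of 0 is near what the background gives.

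Among the 12 lowest ratios, Cxcr4, the chemokine receptor that holds B cell precursors in the marrow, was at 103 CPM in control, 42.2 in Ikk2CA, 58.4 in Jak2V617F and 51.5 in the double mutant, or 0.411 times control (95% interval 0.357 to 0.474) in Ikk2CA. It was below control in all 3 mutant libraries, and the other kept cells showed 59.2, 27.6, 46.0 and 39.4 CPM. Rnaset2b, a lysosomal nuclease, was at 148, 55.3, 81.6 and 66.5 CPM, Tnrc6c, a factor of microRNA silencing, at 100.1, 38.8, 70.4 and 84.7 CPM and Rpgrip1 at 109, 44.7, 68.1 and 65.8 CPM. Wdr89, Hist1h2ac, Rsrp1, Lgals1, Ifitm1 and Carnmt1 had log2 ratios between -1.16 and -0.83. The other 2 are granule genes of the neutrophil line and rest on few cells. Elane, neutrophil elastase, was at 214, 35.7, 5.24 and 2.61 CPM but in only 8.62%, 6.72%, 6.67% and 5.36% of early B cells, and Ctsg, cathepsin G, at 168, 94.1, 47.2 and 26.1 CPM in 15.5%, 17.6%, 21.9% and 17.9%. Among cells without Xist the log2 ratio of Elane was 1.23 in place of -2.58.

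The stage lists are read against the 1.82% of all compared genes that were at least 2-fold higher and the 0.497% at least 2-fold lower, so counts of 0 are near what the background gives. In the B identity list 0 of 16 compared genes passed 2-fold in either direction, and their median log2 ratio was -0.26. In the pre-B cell receptor list it was 0 of 9, with a median of -0.03, and in the early lymphoid list 0 of 17, with -0.17. The G2 and M phase list had 0 of 44, with a median of -0.37. In the pre-B resting list 1 of 5 compared genes, Cxcr4, was at least 2-fold lower, with a median of -0.46. Ly6d was at 384 CPM in control, 715 in Ikk2CA, 386 in Jak2V617F and 469 in the double mutant, or 1.86 times control (95% interval 1.74 to 1.99) in Ikk2CA. Id3, an inhibitor of E proteins, was at 185, 254, 137 and 113 CPM, or 1.37 times (95% interval 1.24 to 1.51).

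The Jak2V617F and double libraries held 105 and 56 early B cells, and their intervals are wider. Jak2V617F had 14 of 3077 compared genes at least 2-fold higher than control (0.455%) and 12 at least 2-fold lower (0.39%). Its highest candidates were Hist1h2ap, Myl4, Nrgn, Hist1h3c, Hist1h4d and Zfp36l2. Myl4, a myosin light chain, was at 47.1, 86.8, 116 and 84.7 CPM, and Zfp36l2, an RNA-binding protein that restrains the pro-B cell cycle, at 267, 261, 493 and 317 CPM, or 1.85 times control (95% interval 1.65 to 2.06) in Jak2V617F. The 6 lowest were Elane, Mpo, Ctsg, Prtn3, H2-T22 and Ube2c. Mpo, myeloperoxidase, was found in 24.1%, 28.5%, 18.1% and 33.9% of early B cells at 162, 141, 29.9 and 36.5 CPM. Ube2c, a mitotic ubiquitin ligase subunit, was at 665, 497, 347 and 529 CPM. Cish, a feedback inhibitor that STAT5 induces downstream of Jak2, was at 13, 11, 26.2 and 34.5 CPM, under the level set for comparison, and Socs2, another, at 48.4, 46.5, 54.6 and 68.4 CPM.

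The double library had 30 of 3019 compared genes at least 2-fold higher than control (0.994%) and 44 at least 2-fold lower (1.46%), and this split depends on scaling, with 58 higher and 14 lower after scaling by trimmed means (TMM). Its highest candidates were Hist1h4d, Ltb, Cd74, Ly6a, Hist1h2an and Hist2h2ac. Ltb stood at 5.46 times control (95% interval 4.41 to 6.80), Cd74 at 4.87 times (95% interval 3.84 to 6.22) and Ly6a at 3.61 times (95% interval 3.00 to 4.36). The 6 lowest were S100a8, Elane, S100a9, Ctsg, Mpo and Prtn3, all granulocyte genes. S100a8, a neutrophil calcium-binding protein, was at 225, 205, 121 and 2.61 CPM in 12.1%, 6.28%, 4.76% and 7.14% of early B cells. Blnk was at 0.528 times control (95% interval 0.464 to 0.600) and Pax5 at 0.669 times (95% interval 0.542 to 0.823), and in the B identity list 2 of 16 compared genes were at least 2-fold lower (Pou2af1 and Rag2), with a median of -0.54. Against Ikk2CA early B cells, the double library had 5 of 2802 genes at least 2-fold higher (0.178%) and 32 at least 2-fold lower (1.14%). Ltb, Cd74 and Ly6a were at 0.833 times (95% interval 0.751 to 0.922), 0.696 times (95% interval 0.617 to 0.783) and 0.885 times (95% interval 0.797 to 0.981) there. The 3 comparisons with control share that library, and the last shares the Ikk2CA library with the first.

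Ikk2-CA could also be read on the Jak2 V617F background, as the double over the Jak2V617F library, which shares no library with Ikk2CA over control. Of 2951 compared genes, 23 were at least 2-fold higher (0.779%) and 30 at least 2-fold lower (1.02%). Ltb stood at 4.73 times Jak2V617F (95% interval 3.67 to 6.17), Cd74 at 3.54 times (95% interval 2.73 to 4.66), H2-Eb1 at 2.50 times (95% interval 1.66 to 3.87) and Ly6a at 2.04 times (95% interval 1.69 to 2.47). The 13 genes higher in both pairs were Cd74, Gimap7, Gm42418, H2-Eb1, Hist1h2ab, Hist1h2an, Hist1h4d, Hist1h4h, Igkc, Ltb, Ly6a, Pf4 and Shisa5, which is 23.6% of the 55 in the first pair and 56.5% of the 23 in the second. Higher levels were not limited to early B cells. In the other kept cells, in the usual order of libraries, Ltb was at 105, 362, 88.3 and 305 CPM, Cd74 at 135, 643, 112 and 226 CPM, Ly6a at 107, 226, 138 and 191 CPM and H2-Eb1 at 58.8, 180.2, 69.9 and 91.0 CPM, and Igkc, Pf4, Hist1h2ab, Hist1h2an and Hist1h4d were likewise higher there in both pairs. No gene was at least 2-fold lower in both. Only 0.497% of compared genes were lower in the first pair and 1.02% in the second, so this lack of overlap is not read as a result. Fos went in opposite directions, at 3.93 times control (95% interval 3.17 to 4.92) in Ikk2CA and at 0.584 times Jak2V617F (95% interval 0.407 to 0.832) in the double library. Vpreb1, Cd79b and Dntt differed by less than 2-fold in both pairs, with ratios of 1.00, 0.981 and 0.943 in the first and 0.944, 0.987 and 0.93 in the second.

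**Figure D5:**
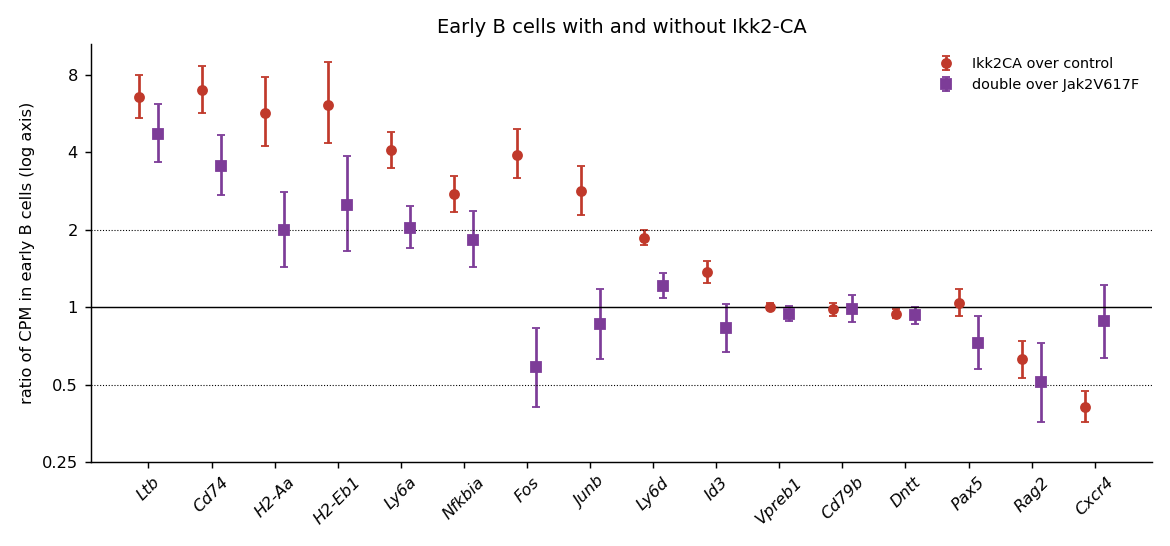
Ratio of CPM in early B cells (log axis) for 16 genes, Ikk2CA over control and double over Jak2V617F, with 95% counting intervals; dotted lines mark 2-fold. Ltb, Cd74 and Ly6a lie above 2 in both pairs, Fos and Junb above 2 in the first pair alone, and Vpreb1, Cd79b and Dntt near 1.

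Markers of other cell types in the early B cells moved with the libraries. The 13 granulocyte and monocyte genes summed to 943, 609, 324 and 228 CPM in early B cells and 3154, 2804, 2189 and 2295 CPM in the other kept cells, and Csf1r was at 0 in control. The 8 neutrophil genes summed to 360.1, 588, 376 and 6.52 CPM against 1050.0, 689, 1217 and 668 CPM, with Ltf at 0 in 3 libraries, all but Ikk2CA. The 11 erythroid genes summed to 255, 654, 243 and 242 CPM and the 8 megakaryocyte genes to 21.9, 74.8, 35.9 and 56.1 CPM, both highest in Ikk2CA. Cd3e, which defines T cells, was at 0 in all 4, and Klk1, a plasmacytoid dendritic cell gene, likewise. The list that holds Klk1 was not absent, since its 13 genes summed to 958, 1378, 942 and 975 CPM in early B cells. In the other kept cells they summed to less, at 592, 1232, 512 and 444 CPM. At 5000 UMIs, at least 3 UMIs of granulocyte and monocyte genes were held by 8.51%, 7.74%, 10.0% and 11.1% of early B cells. For the 10 plasma cell genes the shares were 58.9%, 70.0%, 54.3% and 53.7%, against 3.91%, 7.72%, 2.85% and 2.51% of the other kept cells. Only 1 gene of that list was compared in all 4 libraries, and it was at least 2-fold higher in early B cells. The part of these lists in the comparisons above was not tested. Leaving out the cells with the highest doublet scores left Ltb, Cd74 and Ly6a at log2 ratios of 2.82, 3.01 and 2.11 for Ikk2CA over control.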

How the data were processed

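Single-cell RNA was counted in 4 libraries of LSK-sorted mouse bone marrow, 1 per genotype. The deposited values are whole-number UMI counts of 32285 features per barcode, not normalised. The file headers name Cell Ranger 4.0.0 while the design text names 3.0.1; mm10 and Seurat 4.0.0 stand in the submitters' processing notes.

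Barcodes with 500 to 7500 genes and under 10% mitochondrial UMIs were kept and the marker rule applied. UMIs were summed per library and scaled to CPM. A gene was compared when 1 of the sets held 50 CPM or more of it, and ratios past 2-fold were counted. Ratios have conditional binomial, shares Clopper-Pearson and levels Poisson exact 95% intervals, which cover counting error only. Genes at 0 were given a limit of 3 UMIs. With 1 library per genotype no test was possible. Cells were thinned to 5000 UMIs with the members kept from the full counts; in the alternative settings the rule was reapplied to the thinned counts.

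Genes were named by rank among those with at least 100 CPM: 12 highest and 12 lowest against other cells and for Ikk2CA over control, and 6 and 6 for the other mutants, leaving out mitochondrial, ribosomal, unnamed, antigen receptor, sex-linked and rule genes, plus stage and gate genes and up to 8 genes per list. The members and the 29 gene lists were chosen with earlier results of these data known. The comparisons of double with Jak2V617F and with Ikk2CA were added after the values were seen, as were the genes higher in both pairs. Doublet calls were not used to remove cells. Computation used Python 3.11.15, matplotlib 3.10.9, Scanpy 1.11.5, NumPy 2.4.6, pandas 2.3.3 and SciPy 1.17.1, and R 4.3.3 with edgeR 4.0.16 and DESeq2 1.42.0 for scaling factors alone; the ratio and count steps were tested on simulated data.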

Additional observations from a re-analysis of the deposited data

Results flagged for a closer look

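Barcodes that the filter left out were searched with the same marker rule. In the Ikk2CA library 5.59% of them met it (26 of 465), against 3.27% in control (62 of 1895). In Jak2V617F the share was 1.02% (15 of 1464) and in the double library 1.38% (7 of 506). The Ikk2CA share was picked out because its value lies above that of control in barcodes that no comparison used. The exact 95% intervals, 3.68% to 8.09% in Ikk2CA and 2.52% to 4.17% in control, overlap, and the difference was not tested.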

How the results depend on the processing

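No paired analysis was possible because each genotype had 1 library. Depth limits the small libraries most, since 56 early B cells carry the double library's values and no alternative replaces missing animals. Over all alternatives, 87 gene counts stayed within 1.5 times and 41 moved, and of the ratios of named genes 490 stayed, 72 moved and 6 reversed. List medians stayed in 901 cases, moved in 75 and reversed in 7, and 51 shares stayed while 9 moved; the cause was not tested except where fewer genes or cells entered.

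Thinning to 5000 UMIs with the rule reapplied put the share of early B cells at 1.83% in control, 13.5% in Ikk2CA and 0.430% in Jak2V617F, surrogate light chain with Dntt at 91.9% in Ikk2CA, and Mki67 or Top2a at 88.6% in control, 82.5% in Ikk2CA and 85.5% in Jak2V617F. It put the log2 ratio of Ly6a to the other cells at -0.89 in control, -0.081 in Ikk2CA, -0.92 in Jak2V617F and -0.18 in the double library, and that to control at 1.77 in Ikk2CA, 0.23 in Jak2V617F and 1.43 in the double library. A stricter rule (Cd79a 4, Ebf1 2 UMIs) gave surrogate light chain with Dntt in 94.2% of control and 95.7% of Ikk2CA cells, and a Ly6a ratio to other cells of 0.24 in Ikk2CA. As a mean over cells, that ratio was -1.12 in control, -0.024 in Ikk2CA, -0.71 in Jak2V617F and 0.013 in the double library; over all barcodes it was 0.58 in the double library, and without high doublet scores 0.42 in Ikk2CA. Over all barcodes the Ly6a ratio of double to Ikk2CA was 0.024 in place of -0.18.

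Counts at least 2-fold higher and lower moved as follows. With TMM, Ikk2CA over control had 8 lower, double over control 58 and 14, and double over Jak2V617F 36 and 10; with median-of-ratios factors the last pairs gave 56 and 14, and 12 lower. As means over cells, Ikk2CA over control had 25 lower, Jak2V617F over control 44 and 29, double over control 109 lower, and double over Jak2V617F 38 and 191. At 10 CPM the counts were 241 and 314 against other cells, 119 and 98 for Ikk2CA, 159 and 134 for Jak2V617F and 97 and 427 for double over control, 97 and 504 for double over Jak2V617F, and 37 and 169 for double over Ikk2CA. At 200 CPM, where fewer genes were compared, they were 40 and 15, 19 and 4, 3 and 4, 9 and 6, 8 and 3, and 0 and 12 in the same order. Double over Jak2V617F had 69 lower without high doublet scores and 49 among cells with no Xist UMI, where double over Ikk2CA had 8 higher.

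Some list medians reversed. With TMM the list median log2 ratio, gate genes, double over control members, was 0.00255, and that of plasmacytoid dendritic genes was 0.0095. At 10 CPM they were -0.076 for interferon-stimulated and -0.12 for neutrophil genes in Jak2V617F over control, and -0.072 for NF-kB targets and -0.11 for STAT5 and cytokine feedback genes in double over Jak2V617F. Among cells with no Xist UMI, the granulocyte-monocyte median was 0.13 and Elane 1.23 in Ikk2CA over control, and Prtn3 0.81 in Jak2V617F over control.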
